A study of Mus musculus with 2 samples.

Results

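The 10 genes described here encode chemokines and chemokine receptors that guide lymphocytes and dendritic cells into, within and out of the skin. They are the ligands Ccl17 and Ccl22 with their receptor Ccr4, Ccl19 with Ccr7, Ccl20 with Ccr6, Cxcl16 with Cxcr6, and Cxcl13. They were chosen by symbol, and 11 of the 31053 gene rows of the counts carried these symbols. The second Ccl19 row (ENSMUSG00000094661, on the unplaced scaffold JH584294.1) held 0 UMIs in both libraries, so all Ccl19 values come from the row on chromosome 4. UMIs are unique molecular identifiers, each of which marks 1 captured transcript. The series holds 2 droplet-based single-cell libraries, 1 of dermis and 1 of epidermis, from wild-type C57BL/6 mice. Both groups had imiquimod (IMQ), a Toll-like receptor agonist that induces psoriasiform inflammation, for 5 consecutive days, and no library of untreated skin is among the samples. The labels give the ear as the treated site, an age of 10 weeks and live cells from both layers, whereas the methods give younger male mice and load all live epidermal cells but only CD45+ live dermal cells.

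Chemokines are small secreted proteins that bind G protein-coupled receptors on leukocytes, and the cells that carry a receptor migrate towards its ligand. CCR7 leads activated dendritic cells from the skin through lymph vessels to the lymph node, CCR4 and CCR6 bring T cells into the skin, and CXCR6 binds CXCL16, a ligand that also exists as a membrane-anchored form. CXCL13 attracts B cells and follicular helper T cells through CXCR5. In mouse psoriasiform skin the CCL20-CCR6 pair is best known, because the T cells that make interleukin-17 carry CCR6.

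The genes lie on 7 chromosomes of GRCm38 (GENCODE M21). Ccl22 (chromosome 8, 94745590 to 94751699) and Ccl17 (chromosome 8, 94810453 to 94812036) are neighbours on the plus strand. Ccl20 is at 83116766 to 83119167 of chromosome 1, Ccl19 at 42754525 to 42756577 of chromosome 4, Cxcl13 at 95956951 to 95961068 of chromosome 5, and Ccr6 at 8236043 to 8257141 of chromosome 17. Ccr4 (114490316 to 114504916) and Cxcr6 (123806475 to 123811760) share chromosome 9, and Cxcl16 (70453983 to 70459984) and Ccr7 (99144196 to 99155077) share chromosome 11. Ccl19 overlaps 4930578G10Rik, Cxcr6 overlaps Fyco1 and Cxcl16 overlaps Zmynd15, each on the opposite strand.

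RefSeq promoters (GRCm38.p6, 250 bases before to 50 bases after an annotated start site) were matched for 8 of the 10 genes, 9 promoters in all. Both strands were searched for the NF-κB consensus, the letters recognised by a transcription factor of inflammatory signalling. The letters were found in 2 of the 9 promoters and in 2779 of all 32851 promoters (8.46%). The 2 promoters belong to a ligand and its own receptor, Ccl20 and Ccr6, and their windows are shown with the matching letters in capitals. Each match starts 80 bases before the start site of its promoter. The Ccl20 window is chr1:83116676-83116705 and the Ccr6 window, from the second of 2 Ccr6 promoters, is chr17:8242436-8242465, both on the plus strand. This second promoter lies inside the Ccr6 gene, and the first, at the gene start, had 0 matches. The Ccl20 letters match on the complementary strand and the Ccr6 letters on both, with an overlapping match that starts 1 base earlier. A match describes the letters and does not show that the factor binds.
Ccl20: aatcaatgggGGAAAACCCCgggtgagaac
Ccr6: gcttggcttgGGGAATTCCCagataaaaac

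After cells with fewer than 200 genes or more than 10% mitochondrial UMIs were left out, 4747 of 5376 dermal and 4173 of 5258 epidermal cells remained. The median depth was 7010 UMIs in the dermis and 25918 in the epidermis, and 30 cell barcodes occurred in both libraries. Cell types were assigned by per-cell marker gates that did not use the 10 genes, and 18.9% of dermal and 3.67% of epidermal cells stayed ungated. Levels are given as CPM, the UMIs of a gene per 1000000 UMIs summed over all cells in a gate. Gates are ordered by level only where they held at least 20 cells, and genes are ranked by ratio only where they had at least 50 UMIs in the compared cells. Each tissue had 1 library, so no test between tissues or cell types was possible. The bracketed ranges, exact at 95%, hold counting error but not the spread between cells or between animals. The 2 tissues differed in sort and depth as well, and these cannot be told apart from the tissue. The gates mostly held their defining genes. Col1a1 was found in 91.6% of the dermal fibroblast gate, Fscn1 in 95.2% of the mature dendritic cell (DC) gate and Cd207 in 88.8% of the epidermal Langerhans gate. The γδT gates required Trdc, so its 100% there was set by the gate. Cd3e, a T cell marker, was found in 91.7% of the dermal and 95.9% of the epidermal γδT gate. In the dermal αβT gate Cd3e was found in 49 of 60 cells, Cd4 in 15 and Cd8a in 4. The share of a gene that defines a gate follows in part from the gating. The 322 fibroblasts were present although the methods sorted CD45+ cells, and 28.9% of them had a UMI of Ptprc, which encodes CD45. The 15 dermal cells that passed the Langerhans gate did so mainly on Epcam (11 cells), with Cd207 in 2 of them, and are therefore called the dermal Epcam gate. Free RNA was present, since Krt14, a keratinocyte keratin, had a UMI in 100% of epidermal Langerhans cells and in 99.8% of epidermal γδT cells.

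**Figure D1:**
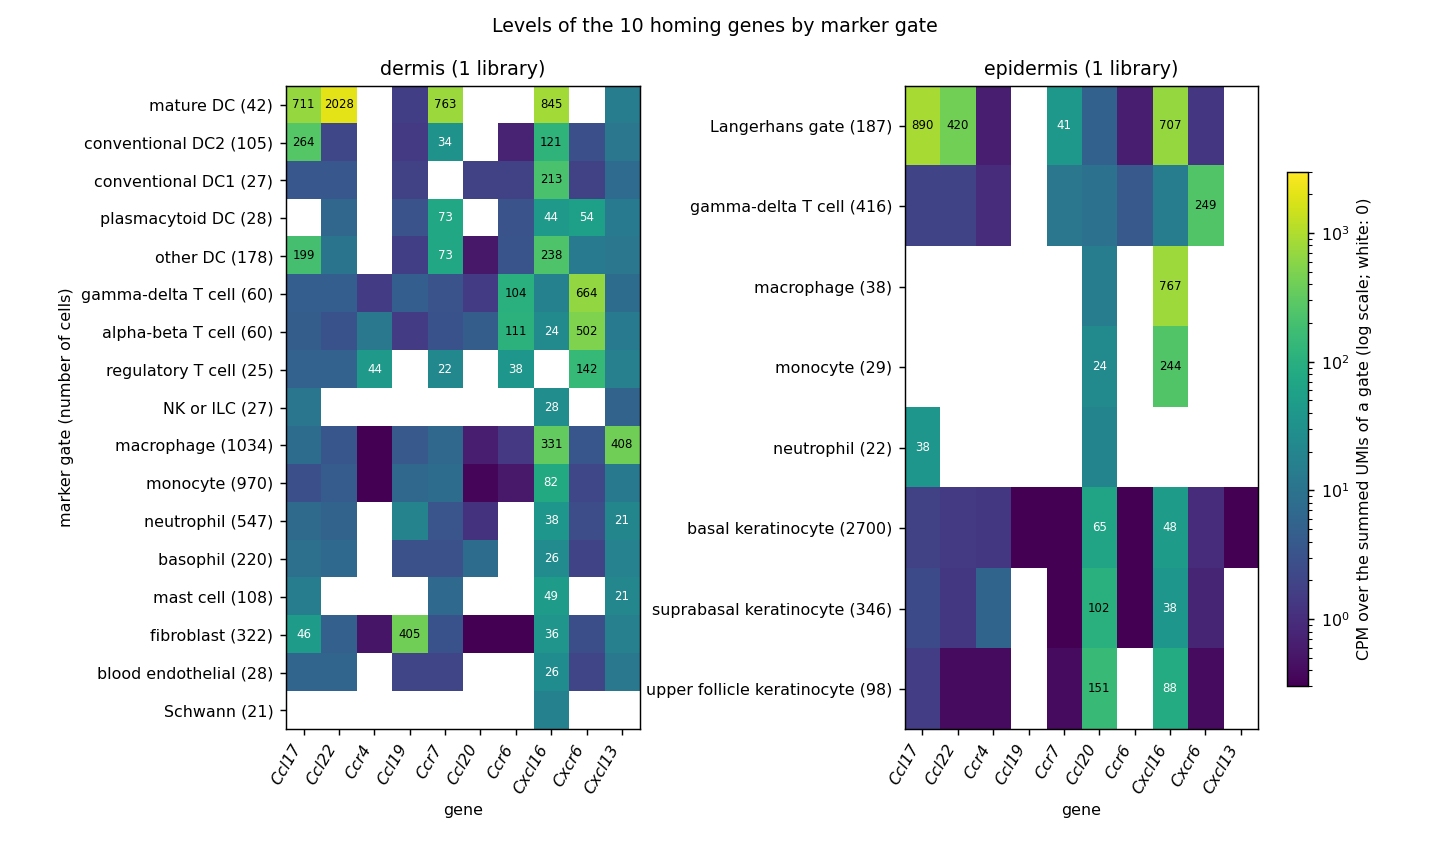
Level of each gene (columns) in each marker gate of at least 20 cells (rows, with the number of cells) in the dermal and the epidermal library, as CPM on a log colour scale, with values printed from 20 CPM. Ccl22 was highest in dermal mature DCs (2028 CPM), Ccl19 in fibroblasts (405), Cxcl13 in macrophages (408) and Ccl20 in upper follicle keratinocytes (151), while the Langerhans row here is the epidermal gate only.

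Ccl17 and Ccl22, which recruit CCR4-bearing T cells, were DC transcripts in both layers. DCs held 80.2% [78.4–81.9] of the 2102 dermal and 87.4% [85.6–88.9] of the 1614 epidermal Ccl17 UMIs. They held 85.5% [83.6–87.3] of the 1460 dermal and 83.6% [81.0–86] of the 897 epidermal Ccl22 UMIs. The 2 ligands differed in which DCs carried them: mature DCs held 82.9% of dermal Ccl22 UMIs, and Ccl17 was spread over several DC gates.

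The 42 mature DCs of the dermis, which have turned on the genes of migration and antigen presentation, held 1210 Ccl22 UMIs, or 2028 CPM [1916–2146], and 36 of them (85.7%) had at least 1. The 15 cells of the dermal Epcam gate had 68.5 CPM [36.4–117] on 13 UMIs. The next gate of at least 20 cells, the 178 other DCs, had 10.3 CPM [6.21–16.1], which is 197-fold lower [125–328] than mature DCs, and ungated cells had 14.5 CPM [11.5–18.0]. In conventional DC2, the DCs that mainly present antigen to helper T cells, 105 cells held 3 Ccl22 UMIs. Among the gates of at least 20 cells below the mature DCs, the levels of other DCs, basophils, plasmacytoid DCs, blood endothelial cells and neutrophils had overlapping intervals, at 5.71 to 10.3 CPM. The dermal library's Ccl22 came from few cells, since 7 held at least 50% of it.

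Among dermal gates of at least 20 cells, Ccl17 was also highest in mature DCs, at 711 CPM [645–782] with UMIs in 21 of 42 cells. Conventional DC2 followed at 264 CPM [237–292] and other DCs at 199 CPM [179–220], so the counting intervals of these 3 gates did not overlap. Single cells weighed heavily, since without the richest cell of each gate the levels were 489, 169 and 136 CPM. The order of the last 2 gates is therefore not secure. Between mature DCs and conventional DC2 the ratio was 2.69 [2.34–3.11] for Ccl17 and 938 [320–4555] for Ccl22. Ccl17 was unevenly spread within each gate: 18 of 105 conventional DC2 had a UMI, and 2 of them held at least 50% of that gate's 366 UMIs. The 15 cells of the dermal Epcam gate had a higher Ccl17 level, 2780 CPM [2548–3028], but 432 of its 528 UMIs came from 1 cell. That cell had 212 UMIs of Cd74, the MHC class II chaperone, and 0 of Cd207. Without it, DCs held 75.1% of dermal Ccl17.

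The dermal fibroblast gate held 182 Ccl17 UMIs, 8.66% [7.49–9.94] of the library. Of these, 171 came from 2 cells, which had 248 and 223 Cd74 UMIs against a median of 3 in the gate, beside 16 and 25 UMIs of Col1a1, a fibroblast collagen gene. Both cells were among those with the highest doublet scores, and with those cells removed the fibroblast share was 0.521%. The level in the fibroblast gate without the 2 cells was 2.79 CPM, against 2.84 CPM in monocytes.

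In the epidermis, Langerhans cells, the resident DCs of this layer, held both ligands. Ccl17 stood at 890 CPM [844–939] in 187 Langerhans cells and had a UMI in 59 of them (31.6%). Ccl22 stood at 420 CPM [388–454] with a UMI in 44 (23.5%). Basal keratinocytes, which are much deeper, had 1.81 CPM of Ccl17 and 1.45 CPM of Ccl22, with a UMI in 5.56% and 4.59% of cells. When each cell was thinned to 2000 UMIs, these shares were 0.417% and 0.265%, against 20.7% and 14.4% in Langerhans cells. In the epidermal library 5 cells held at least 50% of the Ccl17, and the 2 richest had 312 UMIs each.

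The mix of the 2 ligands separated the DC gates. Ccl17 made up 99.2% [97.6–99.8] of the summed Ccl17 and Ccl22 UMIs in conventional DC2, 95.1% [92.4–97.0] in other dermal DCs, 67.9% [65.9–70.0] in Langerhans cells and 25.9% [23.8–28.1] in dermal mature DCs. Among the mature DCs, 21 cells had both transcripts, 15 had only Ccl22 and 0 had only Ccl17. Among the Langerhans cells, 28 had both, 31 only Ccl17 and 16 only Ccl22. Each of the 21 mature DCs with Ccl17 had Ccl22 as well, whereas 31 of the 59 Langerhans cells with Ccl17 did not.

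**Figure D2:**
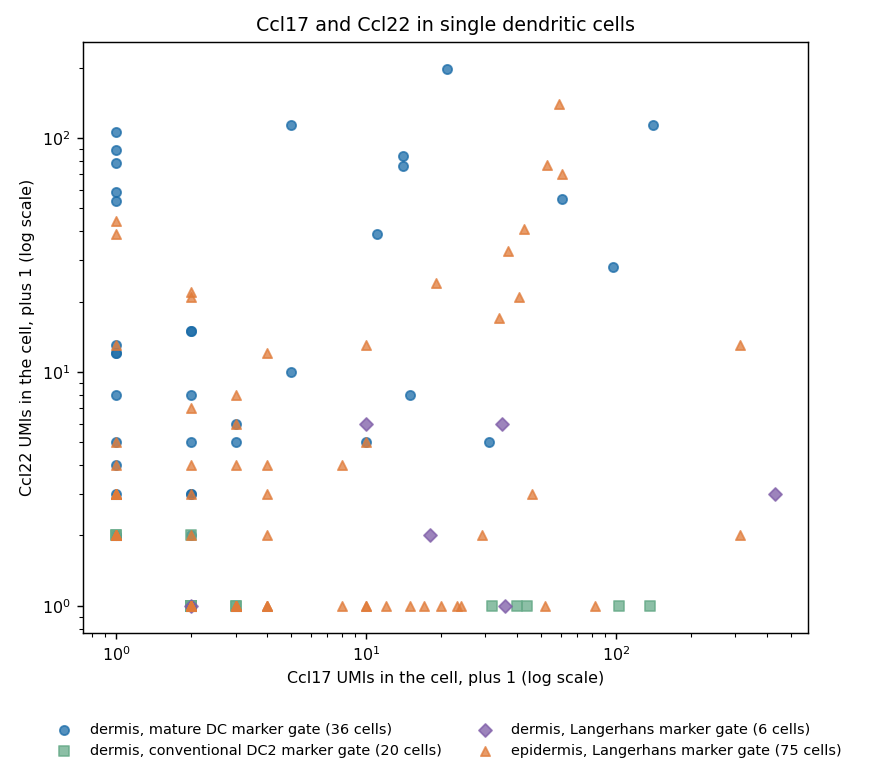
Ccl17 UMIs (x axis, plus 1, log scale) and Ccl22 UMIs (y axis, plus 1, log scale) in each cell with a UMI of either gene, by marker gate. Dermal mature DCs (36 cells) lie mostly along the left and upper side. The 20 conventional DC2 lie low, with 0 or 1 Ccl22 UMIs, and the 75 epidermal Langerhans cells spread between them.

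Langerhans cells with and without a Ccl17 UMI (59 and 128 cells, median depth 8416 and 7804 UMIs) were compared over 5097 genes with at least 20 UMIs. Among genes with at least 50 UMIs Ccl22 had the largest ratio, at 1000 against 114 CPM (8.75-fold [7.15–10.8]). Samsn1, a signalling adaptor (4.35-fold [2.41–8.21]), and Il4i1, an amino acid oxidase of activated DCs (4.15-fold [2.59–6.8]), followed. Past 2-fold, 2.02% of all genes were higher and 4.24% lower in the Ccl17-positive cells. Of 15 measured genes of a DC maturation list, 6 were higher and 0 lower, with a median log2 ratio of 0.83 against -0.06 over all genes. The 6 include Cacnb3, a calcium channel subunit (12.0-fold [3.54–63.4]), Fscn1, which bundles actin in migrating DCs (2.55-fold [1.61–4.07]), Pdcd1lg2, which encodes the inhibitory ligand PD-L2 (2.85-fold [1.38–6.05]), and Cd83, a surface marker of mature DCs (2.17-fold [1.16–4.10]). Among the 10 list genes not used by the gates, 3 were higher and the median was 0.01. Cxcl16 was 1.44-fold higher [1.27–1.62] in the Ccl17-positive cells. The smallest ratios were those of Slpi, a protease inhibitor (2 against 54 UMIs), Cd7 (5 against 59) and Dpep2 (7 against 71).

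Ccr4, the receptor of both ligands, was near the limit of detection. The dermal library held 33 Ccr4 UMIs, of which T cells held 51.5% [33.5–69.2] and ungated cells 30.3%. When graph clusters replaced the gates, T cells held 87.9%. The highest level was in regulatory T cells, which restrain inflammation, at 43.8 CPM [18.9–86.3] with a UMI in 7 of 25 cells. αβT cells had 12.1 CPM [5.24–23.9] with a UMI in 5 of 60. The 2 levels rested on 8 UMIs each, their intervals overlapped, and their ratio was 3.61 [1.18–11]. γδT cells of the dermis had 1 UMI. DCs, the cells with the ligands, had 0 Ccr4 UMIs in the dermis and 1 in the epidermis.

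In the epidermis 171 of 173 Ccr4 UMIs lay in keratinocytes, which also held 101012698 of the library's 105033363 kept UMIs. Suprabasal keratinocytes, the differentiating layers, had 5.86 CPM [4.38–7.69] and basal keratinocytes 1.32 CPM [1.09–1.58], a ratio of 4.45 [3.14–6.21]. The richest cell had 3 UMIs, so the level was low and spread over 164 cells. γδT cells had 1 UMI in 416 cells, or 0.974 CPM [0.0247–5.43], an interval that overlaps that of basal keratinocytes. Thinned to 2000 UMIs, 1.27% [0.347–3.22] of suprabasal and 0.189% [0.0615–0.441] of basal keratinocytes kept a Ccr4 UMI, and these intervals overlap.

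Ccl19, a ligand of CCR7 made by stromal cells, was a fibroblast transcript of the dermis. The fibroblast gate held 1596 of 1891 UMIs (84.4% [82.7–86]) at 405 CPM [386–426], and 209 of 322 fibroblasts (64.9%) had a UMI. The epidermal library held 2 UMIs. Unlike Ccl17, the transcript was broadly shared, since the richest fibroblast had 65 UMIs and 36 cells held at least 50% of the gate's UMIs. Ungated cells had 22.3 CPM [18.6–26.5]. Among the other gates of at least 20 cells, neutrophils came next at 18.6 CPM [13.8–24.7] and monocytes at 6.6 CPM [5.01–8.53], 61.4-fold [47.3–81.3] below fibroblasts. In neutrophils, 4 cells held at least 50% of the 49 UMIs. Mature DCs, which carry the receptor, had 1 UMI of the ligand. After thinning to 2000 UMIs, 38.1% [32.7–43.8] of fibroblasts and 0.628% [0.231–1.36] of monocytes had a UMI, from median depths of 10544 and 8716.

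Ccl19-positive and Ccl19-negative fibroblasts (209 and 113 cells, median depth 11911 and 7717 UMIs) were set side by side over 9187 genes, of which 2.57% were higher and 6.62% lower past 2-fold in the positive cells and the median log2 ratio was -0.19. The largest ratios were those of Reg3g, an antibacterial lectin (263 against 1.84 CPM), Ccl17, which came from the 2 Cd74-rich cells described above, and Tnfrsf4, which encodes the receptor OX40 (51.5 against 2.76 CPM). The smallest were those of Cytl1 (17.5 against 678 CPM), Chad, a cartilage matrix protein (7.01 against 154 CPM), and Angptl7 (24.2 against 462 CPM). Tnc, the tenascin-C gene that marks the papillary fibroblasts of interest to the study, stood at 836 CPM in Ccl19-positive and 873 CPM in Ccl19-negative cells, a ratio of 0.957 [0.888–1.03].

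Ccl21a, the other CCR7 ligand, had 6841 dermal UMIs and 0 in the epidermis. The 10 lymphatic endothelial cells held 3172 of them, at 30270 CPM [29226–31342], and ungated cells held 2758. Fibroblasts had 21.8 CPM. The 2 CCR7 ligands were thus found in different stromal gates.

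Ccr7, which leads DCs to the lymph node, was highest in mature DCs. DCs held 72.8% [69.8–75.6] of the 926 dermal Ccr7 UMIs, and mature DCs alone held 49.1%, at 763 CPM [694–836] with a UMI in 39 of 42 cells. Plasmacytoid DCs, which make type I interferon, had 72.9 CPM [46.2–109] and other DCs 72.7 CPM [60.9–86.1]. Conventional DC2 had 33.9 CPM [24.9–45.0], 22.5-fold [16.7–31.1] below mature DCs. The levels of plasmacytoid and other DCs did not differ beyond their intervals. The 23 UMIs of plasmacytoid DCs came from 8 of 28 cells. Regulatory T cells had 4 UMIs, at 21.9 CPM [5.97–56.1], and dermal T cells together 9.

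In the epidermis 104 Ccr7 UMIs were found, 70.2% [60.4–78.8] of them in DCs. Langerhans cells had 40.6 CPM [31.2–52.0], with a UMI in 12 of 187 cells. All 12 also had Ccl22, against 18.3% of the Langerhans cells without Ccr7, and 9 of the 12 had Ccl17. γδT cells had 11.7 CPM [6.04–20.4], 1 UMI in each of 12 cells.

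Dermal DCs with and without a Ccr7 UMI (79 and 316 cells, median depth 14316 and 11566 UMIs) were compared over 8673 genes, and 39 of the Ccr7-positive cells were in the mature gate. Past 2-fold, 6.39% of all genes were higher and 9.00% lower in the Ccr7-positive cells. Of 26 maturation genes, 22 were higher and 0 lower, with a median log2 ratio of 2.36 against -0.13 over all genes. Of the 17 not used by the gates, 14 were higher. Among genes with at least 50 UMIs, the largest ratios were those of Apol7c, an apolipoprotein L family gene (214 against 0.533 CPM, in 15 of 79 and 2 of 316 cells), Ccl22 (1085 against 9.86 CPM, 110-fold [79.4–157]), and Nudt17, a hydrolase of the Nudix family (82.3 against 0.799 CPM). Fscn1 stood at 982 against 24.2 CPM, Relb, an NF-κB subunit, at 189 against 41.3 CPM, Cd40, which receives T cell help, at 91.3 against 21 CPM, and Il12b, the p40 subunit of interleukin-12 and interleukin-23, at 24 against 0 UMIs. The 4 list genes between the limits were Tnfrsf4, Il15ra, Cflar and Icosl, at ratios of 1.63 to 1.97.

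Of 11 measured genes of antigen uptake, 5 were lower and 0 higher in Ccr7-positive DCs, with a median log2 ratio of -0.84. The 5 were Cd209a (0.457-fold [0.346–0.596]) and Mgl2 (0.453-fold [0.363–0.561]), both lectins, Fcgr1, an Fc receptor (0.452-fold [0.250–0.764]), Mrc1, the mannose receptor (0.430-fold [0.290–0.619]), and Lyz2, the lysozyme gene of myeloid cells (0.477-fold [0.448–0.507]). The proteases Ctsb and Ctss stood at 1.02-fold and 0.876-fold. Of the 6 genes not used by the gates, 2 were lower. Among the other homing genes, Cxcl16 was 3.17-fold higher [2.84–3.53] and Ccl17 1.40-fold higher [1.26–1.56] in Ccr7-positive DCs. The smallest ratios belonged to Stfa2, a cysteine protease inhibitor of neutrophils (1 against 543 UMIs, the latter in 21 cells), Il17f, a T cell cytokine (1 against 139 UMIs), and Ifi205, an interferon-inducible gene (5 against 477 UMIs).

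Ccl20, the ligand of CCR6, was a keratinocyte transcript. Keratinocytes held 7076 of 7122 epidermal UMIs (99.4% [99.1–99.5]), and the dermal library held 130 UMIs, 90 of them in its 1 gated keratinocyte. Upper follicle keratinocytes, the cells around the hair canal, had 151 CPM [136–167], suprabasal keratinocytes 102 CPM [95.1–109] and basal keratinocytes 64.6 CPM [63.0–66.3]. These 3 intervals did not overlap, and the ratios were 2.33 [2.10–2.59] for follicle over basal and 1.57 [1.47–1.69] for suprabasal over basal. Basal cells were the largest gate, with 89494199 of the library's 105033363 kept UMIs, and held 81.2% of the Ccl20 UMIs. At least 1 Ccl20 UMI was seen in 49.0% of follicle, 33.5% of suprabasal and 40.1% of basal cells, and after thinning to 2000 UMIs in 19.1% [11.8–28.6], 9.21% [6.25–13] and 8.63% [7.59–9.77]. Langerhans cells, which should lack the gene, had 5.16 CPM and 1.72% after thinning. The transcript was uneven among basal cells, of which 66 of 2700 held at least 50% of that gate's 5783 UMIs and the richest held 248.

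Basal keratinocytes with and without Ccl20 (1083 and 1617 cells, median depth 34401 and 31240 UMIs) were compared over 12711 genes, of which 0.362% were higher and 0.842% lower past 2-fold in the positive cells. The largest ratios were those of Arg1, an arginase (6.11-fold [3.47–11.5]), Mmp10 (3.85-fold [2.64–5.75]) and Mmp9 (3.62-fold [2.55–5.22]), both matrix metalloproteinases, on 15 to 125 UMIs a side. The smallest were those of Dct, a melanocyte enzyme (0.165-fold), Ptgds (0.201-fold) and Ccl7 (0.335-fold). Of 17 measured genes known to respond to interleukin-17, 0 were higher and 1, Saa3, was lower (0.426-fold [0.344–0.524]), with a median of 0.08. The neutrophil chemokines Cxcl2 (1.83-fold [1.72–1.95]) and Cxcl1 (1.58-fold [1.53–1.64]) and the NF-κB inhibitor Tnfaip3 (1.67-fold [1.41–1.98]) had the largest ratios in this list, while the calprotectin genes S100a8 and S100a9 stood at 0.956-fold and 0.970-fold. Cxcl16 stood at 1.05-fold [0.993–1.12].

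Ccr6, the receptor of CCL20, was carried by dermal T cells of both lineages. Of 255 dermal UMIs, gated T cells held 58.8% [52.5–64.9], ungated cells 29.4% and, by graph clusters, T cells 89.8%. αβT cells had 111 CPM [86.8–139] with a UMI in 28 of 60 cells and γδT cells 104 CPM [80.7–132] with a UMI in 25 of 60. The 2 levels did not differ beyond counting error (ratio 1.06 [0.752–1.5]). Regulatory T cells had 38.3 CPM on 7 UMIs, 2.72-fold [1.25–7.02] below γδT cells. Fibroblasts and basal keratinocytes were below 1 CPM.

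The epidermal library held 60 Ccr6 UMIs. The 416 epidermal γδT cells had 4 of them, or 3.90 CPM [1.06–9.98], whereas 13 αβT cells had 11, or 125 CPM [62.5–224], with a UMI in 6 cells. Ungated cells held 22. The dermal over epidermal ratio of the γδT gates was 26.7 [9.97–101], an interval of counting error between 1 library of each layer. The median depth was 9359 UMIs per dermal and 2362 per epidermal γδT cell. After thinning to 2000 UMIs, 27.6% [16.7–40.9] of 58 dermal and 0.333% [0.00844–1.84] of 300 epidermal γδT cells had a Ccr6 UMI. Among all genes tested in γδT cells, 6.46% were more than 2-fold higher in the dermis, and of the 3 homing genes that could be tested 2, Ccr6 and Cxcr6, were. The median log2 ratio over all genes was -0.53 here and -0.45 in all T cells. Tcrg-V5, a γ chain segment typical of resident epidermal γδT cells, was found in 20 of 416 epidermal and 0 of 60 dermal γδT cells. At so low a detection, and with unlike depth, no difference between the 2 gates can be read from it. The δ chain segment Trdv4 was found in 119 of 416 epidermal and 15 of 60 dermal γδT cells. Tcrg-V6, another γ chain segment, was found in 2 epidermal cells and 1 dermal cell. Over all T cells the Ccr6 ratio was 5.50 [3.44–9.27] by gates and 2.28 by graph clusters.

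Dermal T cells with and without Ccr6 (62 and 100 cells, median depth 11228 and 5696 UMIs) were compared over 5671 genes, with 2.01% higher and 5.48% lower past 2-fold in the positive cells. Of 18 measured genes of type 17 T cells, 1 was higher, 1 lower, and the median log2 ratio was 0.28 against -0.12. The gene that was higher was Il22, a cytokine that acts on keratinocytes, at 6181 against 1878 CPM (3.29-fold [3.10–3.49]). The gene that was lower was Cd163l1, a scavenger receptor of γδT cells (0.339-fold [0.257–0.442]). Il17f stood at 1.57-fold and Il17a at 0.603-fold. Il22 had a UMI in 48 of 62 Ccr6-positive and 39 of 100 Ccr6-negative cells, and Il17f in 46 and 40. Within αβT cells, 3 of 14 measured list genes were higher, with Il17f at 4725 against 642 CPM, and within γδT cells 2 of 17. The share over all genes was not computed for these 2 subset splits. Il17a went in opposite directions, at 1521 against 280 CPM in αβT cells and 1013 against 4087 CPM in γδT cells. Single cells weighed heavily, with 381 of the 612 UMIs of positive αβT cells and 739 of the 1345 of negative γδT cells in 1 cell each. With each cell of the whole T cell class thinned to 1000 UMIs, 0 of 12 list genes were higher.

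The largest ratios in Ccr6-positive dermal T cells were those of Tff1, a trefoil peptide (83 against 9 UMIs, in 6 cells of each group), Gzma, a granzyme (66 against 12 UMIs), and 5830411N06Rik (253 against 60.5 CPM). The smallest were those of Mmp13 (2 against 53 UMIs), Lyz1 (4 against 68 UMIs) and Ms4a4b (12.3 against 141 CPM). Cxcr6 was 1.42-fold higher [1.24–1.64] in the Ccr6-positive cells, and 53 of those 62 cells (85.5%) had a Cxcr6 UMI against 48.0% of the Ccr6-negative cells. All 25 Ccr6-positive γδT cells had Cxcr6. The Ccr6-positive cells were about 2-fold deeper, and the part of depth in these shares was not tested.

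Cxcl16, the ligand of CXCR6, was detected in more cells than any other of the 10 genes, 1913 in the dermis and 2310 in the epidermis. In the dermis it had 6755 UMIs, of which macrophages held 52.9% [51.7–54.1], DCs 19.6% and monocytes 10.7%. Mature DCs had the highest level, at 845 CPM [773–922] with a UMI in 36 of 42 cells. Macrophages had 331 CPM [320–342] with a UMI in 812 of 1034 cells, 2.55-fold [2.32–2.80] below mature DCs and 4.04-fold [3.73–4.38] above monocytes (81.9 CPM [76.0–88.1]). Other DCs had 238 CPM [216–262], conventional DC1, the DCs that cross-present antigen, 213 CPM [176–256] and conventional DC2 121 CPM [103–141]. The intervals of other DCs and conventional DC1 overlapped. No few cells decided the dermal level, since the richest cell had 52 UMIs and 310 cells held at least 50%.

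In the epidermis keratinocytes held 75.5% [74.4–76.5] of 6494 Cxcl16 UMIs. Their level was low, at 48.5 CPM [47.0–49.9] in basal and 38.0 CPM [34.0–42.3] in suprabasal cells, with 88.2 CPM [77.0–101] in the upper follicle. Langerhans cells had 707 CPM [666–750] with a UMI in 169 of 187 cells, 14.6-fold [13.6–15.6] above basal keratinocytes. The 38 epidermal macrophages had 767 CPM [654–895], and the ratio of Langerhans cells to them was 0.922 [0.781–1.09]. γδT cells, which carry the receptor, had 14.6 CPM [8.18–24.1].

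**Figure D3:**
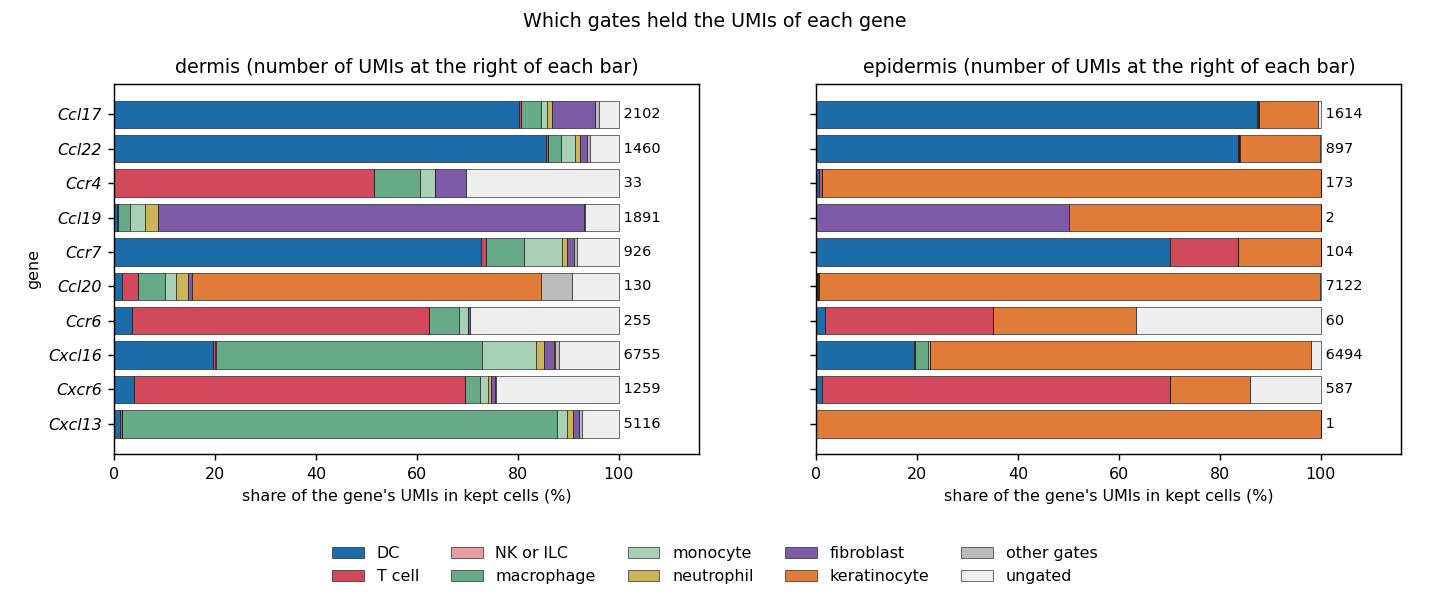
Share of each gene's UMIs (x axis, percent) held by each marker gate in the dermal (left) and epidermal (right) library, with the gene's UMI total beside the bar. DCs hold most Ccl17 and Ccl22 in both layers. Macrophages hold 52.9% of dermal Cxcl16 and keratinocytes 75.5% of epidermal Cxcl16. Keratinocytes also held 101012698 of the 105033363 kept epidermal UMIs. Their Cxcl16 level was low, at 48.5 CPM in basal cells against 767 in epidermal macrophages and 707 in Langerhans cells. Bars of Ccr4 (33 dermal UMIs) and of epidermal Ccl19 (2) and Cxcl13 (1) rest on few UMIs.

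Within gates that both layers held, the DC ligands were lower in the dermis and the receptor Ccr7 was higher. The dermal over epidermal ratio in DCs was 0.437 [0.406–0.469] for Ccl17, 0.608 [0.555–0.666] for Ccl22, 0.384 [0.355–0.415] for Cxcl16 and 3.37 [2.64–4.35] for Ccr7. Epidermal DCs were mostly Langerhans cells (187 of 216), and dermal DCs were spread over other gates. Past 2-fold, 18.7% of 9495 genes were higher in dermal and 9.70% in epidermal DCs, and of the 6 homing genes tested 3 and 2 were. Cxcl16 was also lower in dermal macrophages, at a ratio of 0.431 [0.369–0.508], where 17.2% of 10094 genes were higher in the dermis and 12.9% in the epidermis.

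Cxcr6 was the most abundant receptor of the set and marked T cells in both layers. Of 1259 dermal UMIs, gated T cells held 65.7% [63.0–68.3] and T cell clusters 90.2%. Of 587 epidermal UMIs, the shares were 69.0% [65.1–72.7] and 89.4%. In the dermis γδT cells had 664 CPM [603–730] with a UMI in 51 of 60 cells, against 24 of 1034 macrophages, and αβT cells 502 CPM [449–559] with a UMI in 38 of 60, a ratio of 1.32 [1.14–1.53]. Regulatory T cells had 142 CPM [93.0–209] in 4 of 25 cells, and 64.7 CPM without the richest cell. Plasmacytoid DCs had 53.9 CPM, of which 1 cell held 16 of 17 UMIs. The 27 gated NK cells or innate lymphoid cells had 0 Cxcr6 UMIs. The 70 ungated dermal cells that scored highest for that class held 86, in 34 cells.

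In the epidermis the αβT gate, with 13 cells, was below the minimum set for ordering gates, so no order is given. These 13 αβT cells had 1263 CPM [1039–1521] with a Cxcr6 UMI in 12 cells, and Cd3e was found in 7 of the 13. The 416 γδT cells had 249 CPM [220–282] with a Cxcr6 UMI in 112. The αβT over γδT ratio was 5.06 [4.02–6.35], which holds counting error only. Between layers, the γδT ratio was 2.66 [2.27–3.12] in favour of the dermis, and after thinning to 2000 UMIs 67.2% [53.7–79.0] of dermal and 23.7% [19.0–28.9] of epidermal γδT cells had a Cxcr6 UMI. Over all T cells, the ratio was 1.5 [1.33–1.69] by gates and 1.08 by graph clusters. Among all genes tested in T cells, 7.87% were higher in the dermis and 25.2% in the epidermis past 2-fold, and of the 5 homing genes tested 2 and 1 were.

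Dermal T cells with a Cxcr6 UMI held most of the type 17 transcripts. They were 101 of 162 cells and were deeper, with a median of 9796 against 4670 UMIs. They held 93.7% of the Il17a, 92.4% of the Il17f and 86% of the Il22 UMIs of gated T cells. Of the UMIs of all genes they held 1227287 of 1571765. Of 18 measured type 17 genes, 11 were higher and 0 lower, with a median log2 ratio of 1.33 against -0.16 over 5671 genes, of which 4.83% were higher and 9.52% lower. Il17a stood at 1825 against 438 CPM (4.16-fold [3.53–4.94]) and Il17f at 3.40-fold [3.07–3.77]. Il22 stood at 1.72-fold [1.61–1.85], within the 2-fold limit. Blk, a kinase of γδT cells, stood at 7.08-fold [3.66–15.7], Il1r1, the interleukin-1 receptor, at 5.33-fold [1.74–26.6], and Il23r, the interleukin-23 receptor, at 2.95-fold [1.28–8.33]. Rora and Maf, transcription factors also used by other T cells, stood at 0.593-fold and 0.685-fold. When each cell was thinned to 1000 UMIs, 12 list genes could be measured and 4 were higher, and the remaining part of depth was not tested.

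The Cxcr6-negative dermal cells held 21 of the 25 regulatory T cells and 9 of the 60 γδT cells, so subset and receptor went together. Foxp3, the regulatory T cell factor (0.0849-fold [0.0419–0.161]), Klrg1, a receptor of effector cells (0.0712-fold [0.0392–0.123]), and Ifi27l2a, an interferon-induced gene (0.0756-fold [0.0603–0.0941]), had the smallest ratios. The largest were those of Fam83a (94 against 0 UMIs, at least 8.79-fold higher), 5830411N06Rik (200 against 14.5 CPM) and Gm26614 (48.1 against 2.90 CPM). Within the γδT gate 8 of 17 list genes were higher (median 0.66, 51 against 9 cells), and within the αβT gate 5 of 14 (median 0.15, 38 against 22 cells). The share over all genes was not computed for these 2 splits, so the counts have no background. In the γδT split, 2 of 9 residence genes were also higher and 2 lower. In the γδT gate Il17a stood at 2756 against 188 CPM, Il17f at 4786 against 306 and Il22 at 2558 against 353. In the αβT gate the summed levels were close, with Il17a at 1025 against 1091 CPM, Il17f at 3179 against 2940 and Il22 at 6897 against 6829. Single cells weighed heavily on the negative side, where 1 cell held 349 of the 372 Il17f UMIs and 1 cell 87 of the 138 Il17a UMIs. Il17f had a UMI in 25 of the 38 positive and 5 of the 22 negative αβT cells, and Il17a in 17 and 2. Il22 had a UMI in 32 of the 38 positive and 3 of the 22 negative αβT cells, and 832 of the 864 Il22 UMIs of the negative cells came from 1 cell.

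**Figure D4:**
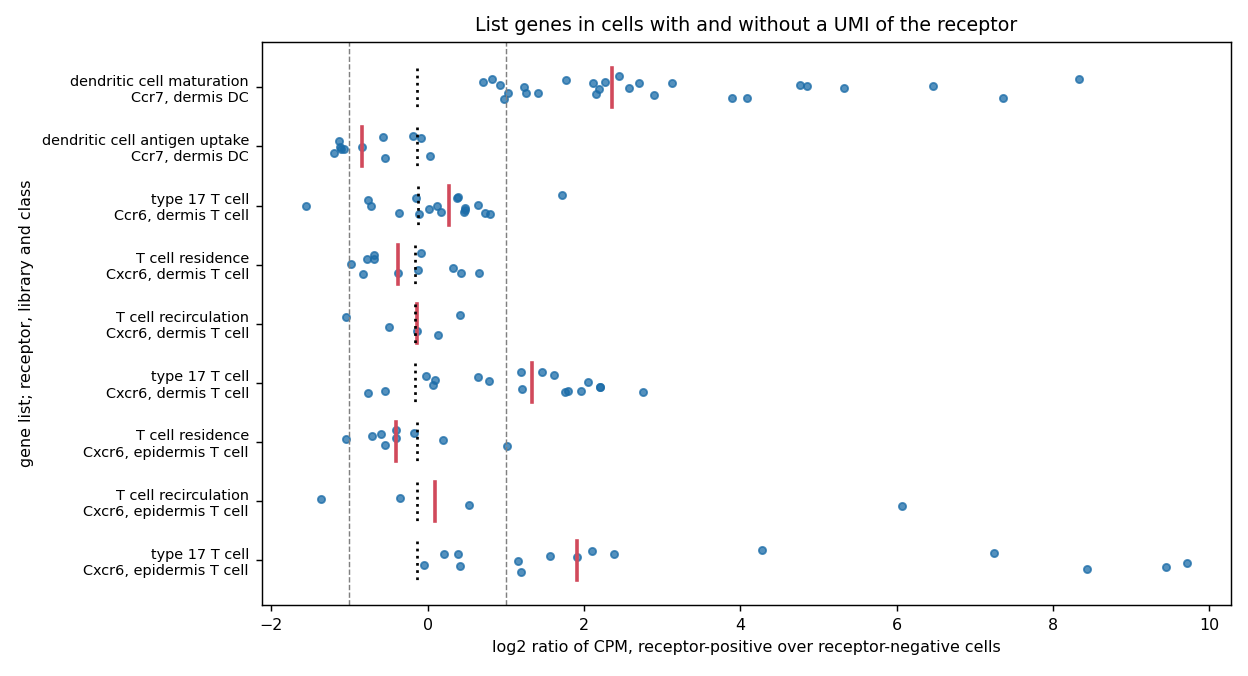
Log2 ratio of CPM (x axis) in receptor-positive over receptor-negative cells for each measured gene of a list (points), with the list median (red line), the median of all genes (dotted line) and the 2-fold limits (dashed lines). The list median lies right of the dotted line for the maturation genes in Ccr7-positive dermal DCs (2.36) and for the type 17 genes in Cxcr6-positive T cells (1.33 and 1.91), and left of it for the residence genes (-0.38 and -0.41).

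Genes of tissue residence gave no such count. In dermal T cells, 0 of 11 measured genes were higher or lower past 2-fold, and the median was -0.38. Cd69, which blocks exit from tissue, stood at 1.59-fold [1.21–2.12], and Itgae, the integrin that binds epithelium, at 0.625-fold [0.403–0.988]. Of 5 recirculation genes, S1pr1, the receptor for exit into lymph, was lower at 13 against 26.1 CPM on 16 and 9 UMIs (0.499-fold [0.208–1.28]), and the other 4 were between the limits.

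In epidermal T cells (129 Cxcr6-positive and 310 negative, median depth 2681 and 2306 UMIs) the type 17 cytokines lay almost wholly in Cxcr6-positive cells. Il17f had 764 against 1 UMI, Il22 1062 against 2 and Il17a 735 against 3, from 20, 17 and 14 positive cells. Most of these UMIs lay in the 12 Cxcr6-positive cells of the αβT gate, with 454 of Il17f, 813 of Il22 and 399 of Il17a. Of 15 type 17 genes, 11 were higher and 0 lower, with a median of 1.91 against -0.13 over 5906 genes, of which 2.22% were higher and 5.38% lower. Blk had 46 against 0 UMIs, and Ccr2, a receptor of inflammatory recruitment, 29 against 2 UMIs (23.8-fold [6.02–206]). Of 9 residence genes, Cd69 was higher (2.04-fold [1.26–3.33]) and Rgs2, a regulator of G protein signalling, lower (0.484-fold [0.425–0.549]). Of 4 recirculation genes, Il7r, the interleukin-7 receptor, was higher (20 against 0 UMIs) and Dapl1 lower (6 against 27 UMIs). Ccr6 itself had 20 UMIs in the Cxcr6-positive and 0 in the negative cells, so all 10 Ccr6-positive epidermal T cells carried both receptors. Il17f was detected in all 10, and together they held 64.4% of the Il17f and 69.3% of the Il22 UMIs of gated epidermal T cells. Within the γδT gate, where 112 cells were positive, Il17a had 208 UMIs in 6 positive and 3 UMIs in 3 negative cells. Il17f had 94 against 1 UMI and Il22 62 against 2 in that gate, and 8 of 14 list genes were higher. For this split the share over all genes was not computed. The smallest ratios were those of Max (0.238-fold), Zmat4 (0.246-fold) and Cd68 (0.255-fold).

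Cxcl13, the ligand of CXCR5, was a macrophage transcript of the dermis that few cells made in large amounts. Macrophages held 4408 of 5116 UMIs (86.2% [85.2–87.1]) at 408 CPM [396–421], but a UMI was found in only 168 of 1034 (16.2%). A single macrophage held 1236 UMIs, 6 cells held at least 50% of the library's UMIs, and without the richest cell the macrophage level was 294 CPM and the share 81.8%. Monocytes had 12.4 CPM [10.2–15] and fibroblasts 16.8 CPM [13–21.3], with a UMI in 9.07% and 13% of cells. After thinning to 2000 UMIs, 7.24% [5.71–9.04] of macrophages had a UMI against 2.20% [1.37–3.34] of monocytes and 1.95% [0.721–4.21] of fibroblasts. The epidermal library held 1 UMI, and its 38 macrophages had 0. Set against 3 counts over that gate, the dermal macrophage level was 28.7-fold higher, a bound for counting error only. It leaves out the spread between cells, which was large here, and the epidermal macrophages were shallower (median depth 4475 against 8645 UMIs). A difference between the layers therefore cannot be read from these 38 cells. Cxcr5, the receptor, had 17 dermal and 4 epidermal UMIs, 2 of them in dermal T cells.

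Cxcl13-positive macrophages (168 against 866 cells, median depth 11170 and 8282 UMIs) were compared over 10047 genes, of which 2.53% were higher and 2.57% lower past 2-fold. Of 14 measured genes of a resident-type list, 5 were higher and 1 lower, with a median of 0.80 against 0.03. Cd209g (8.31-fold [5.41–13]) and Cd209f (3.61-fold [2.86–4.57]), lectins of the DC-SIGN family, Cd36, a scavenger receptor (2.39-fold [2.04–2.80]), Igf1, a growth factor (2.08-fold [1.77–2.44]), and Lyve1, a hyaluronan receptor (2.04-fold [1.45–2.85]), were higher. Ccl24, an eosinophil chemokine, was lower (0.429-fold [0.284–0.626]). Lyz1 (4.6-fold [4.13–5.12]) and Gprc5b (3.69-fold [2.08–6.53]) also had large ratios. Prss34 (0.112-fold), Pdgfb (0.135-fold) and Klrk1, a receptor of natural killer cells (0.155-fold), had the smallest. Cxcl16 was lower in the same cells, at 238 against 355 CPM (0.671-fold [0.610–0.737]), with a Cxcl16 UMI in 73.2% of Cxcl13-positive and 79.6% of Cxcl13-negative macrophages.

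The gene patterns most like each of the 10 were sought by Pearson's r of log levels over 18 gates, which share libraries and depth, so the values are descriptions. Ccl19 was closest to Nnmt (0.98) and Gfra1 (0.97), Ccl20 to Nrarp (0.97) and Adtrp (0.94), and Cxcr6 to Sh2d2a (0.97), Blk (0.96) and Tox (0.96). Ccr6 was closest to Actn2 (0.97) and Blk (0.95), then to Cxcr6 (0.92). Ccl17 was closest to Adam23 and Rtn1 (0.89 each), Ccl22 to Ly75 (0.88) and Adam23 (0.84), and Ccr7 to Gosr2 (0.89) and Mvp (0.88). Cxcl13 was closest to Ccl21a, Vcam1 and Cltc (0.90 each), Cxcl16 to Atox1 and Tmem120b (0.86 each), and Ccr4 to Hist1h3g and Hlf (0.80 each). The 18 gates left out lymphatic endothelial and ungated cells and held 867 of the 6841 dermal Ccl21a UMIs.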

How the data were processed

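Live cells of imiquimod-treated dermis and epidermis were loaded on the Chromium 3′ platform, 1 library each. The authors counted UMIs per gene and cell with Cell Ranger (version 3.0.2 per the file headers; build mm10 and CASAVA per the submitters' notes) and deposited raw counts of the barcodes called as cells, with no normalization. Counts of 3′ tags do not scale with transcript length.

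The dermal library held 41258087 and the epidermal library 108768396 UMIs. Barcodes under 200 genes or above 10% mitochondrial UMIs were left out. Each was scored on marker lists and gated to the highest class (at least 3 markers, score at least 0.06, at least 1.25 times the next). UMIs were summed per gate, with exact Poisson, Clopper-Pearson and conditional intervals at 95%. Positive cells had at least 1 UMI of the gene. Their comparison used genes with at least 20 UMIs, a pseudocount of 0.5 UMI and a 2-fold limit, and leaves out the gene that split the cells. A gene at 0 was set to 3 counts for a bound. Doublets were not removed in the main values. The members and lists were chosen with earlier results of these data known. Gate thresholds, the ligand-based comparisons and the interleukin-17 response and resident-type lists were set after values were seen. Named genes were the members, list genes and the 3 largest and 3 smallest ratios among genes with at least 50 UMIs, and Tnc, Ccl21a and the genes used to check gates were added. Scripts were tested on simulated data. Python 3.11.15, numpy 2.4.6, scipy 1.17.1, pandas 2.3.3 and scanpy 1.11.5 were used. Alternatives covered cell filters, doublet removal, graph clusters, a stricter margin, the richest cell, per-cell means, thinning, UMI minimums and pseudocounts.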

Additional observations from a re-analysis of the deposited data

How the results depend on the processing

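Under the alternatives, 31 main values were recomputed. They were the shares of UMIs by class and the dermal over epidermal ratios in DCs, macrophages and all T cells. The others were the maturation, uptake, type 17 and dermal residence counts split by a receptor. Ratios between gates or within γδT cells and the lists split by a ligand were not among the 31 values. None of the dermal over epidermal ratios changed direction, and shares and counts have no direction that could reverse. Of 178 pairs of a value and an alternative, 63 moved beyond the main counting interval or, for list counts, beyond a set factor. Levels and detection shares of classes with at least 20 cells were recomputed as well. Of the level pairs, 118 moved and 892 did not. Of the detection shares under thinning, 179 moved and 161 did not. With graph clusters in place of gates, the share of UMIs in DCs was 72.8% for dermal Ccl17 and 75.7% for dermal Ccr7, in fibroblasts 92.5% for Ccl19, in dermal macrophages 55.8% for Cxcl16 and 91.7% for Cxcl13, and in T cells 87.9% for dermal Ccr4, 89.8% and 83.3% for dermal and epidermal Ccr6, and 90.2% and 89.4% for dermal and epidermal Cxcr6. The dermal over epidermal ratios by clusters were 0.47 for Ccl17, 0.72 for Ccl22 and 0.437 for Cxcl16 in DCs, 2.28 for Ccr6 and 1.08 for Cxcr6 in T cells, and 0.524 for Cxcl16 in macrophages. With a gate margin of 2 over the next class, the DC shares were 72.9% for dermal Ccl17 and 65.6% for dermal Ccr7, the fibroblast share of Ccl19 77.2%, the keratinocyte shares 96.4% for Ccl20 and 72.3% for Cxcl16, the dermal T cell shares 33.3% for Ccr4, 42.0% for Ccr6 and 48.9% for Cxcr6, the epidermal T cell share of Cxcr6 53.7%, and the macrophage shares 44.3% for Cxcl16 and 85.1% for Cxcl13. The DC ratios were then 0.499 for Ccl17, 0.758 for Ccl22 and 0.417 for Cxcl16. A stricter margin leaves more cells ungated by construction. Under the study's cell filters (up to 5000 genes and 5% mitochondrial UMIs), the DC shares were 88.5% for dermal Ccl22, 92.5% for epidermal Ccl17 and 90.3% for epidermal Ccl22, the keratinocyte shares 98.6% for Ccl20 and 63.1% for Cxcl16, and the epidermal T cell share of Cxcr6 74.2%. With the highest doublet scores removed, they were 87.8% for dermal Ccl17 in DCs, 0.521% in fibroblasts, 88.3% for Ccl19, and 69.3% and 73.6% for dermal and epidermal Cxcr6. Without the richest cell, the DC shares were 75.1% and 84.3% for dermal and epidermal Ccl17 and 83.3% and 80.6% for Ccl22, the fibroblast share of Ccl17 4.57%, and the macrophage share of Cxcl13 81.8%.

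List counts moved as follows. Thinning to 1000 UMIs gave 9 maturation genes of 10 tested, 4 of 12 dermal and 5 of 11 epidermal type 17 genes for Cxcr6, and 0 of 12 for Ccr6, with fewer genes tested by construction. A minimum of 50 UMIs gave 7 of 11 epidermal type 17 genes. Clusters gave 3 uptake genes lower and 3 type 17 genes higher for Ccr6, and the stricter cell filters 3 uptake genes lower. Restricted to γδT cells, 2 type 17 genes were higher for Ccr6, and 2 residence genes were higher and 2 lower for Cxcr6. Restricted to αβT cells, 3 type 17 genes were higher for Ccr6, 5 for Cxcr6, and 2 residence genes were lower. Residence genes lower in Cxcr6-positive dermal T cells numbered 1 with positive cells from 2 UMIs or with a pseudocount of 1. The subset restrictions, and doublet removal in the list counts, were chosen after seeing the data. For the subset restrictions the share over all genes was not computed. Except where construction is named, the cause was not tested. No paired analysis was possible because only 1 library was made of each skin layer. Ccr4 rested on 33 dermal and Ccr6 on 60 epidermal UMIs, so their shares have wide counting intervals.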

Other observations

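Other homing chemokines and receptors were taken from a list of 35 genes, of which 28 had at least 20 UMIs in the dermis and 20 in the epidermis. Among ligands, Ccl8, a monocyte and lymphocyte attractant, was highest in macrophages, at 1539 CPM [1516–1563] in the dermis and 1118 CPM [980–1270] in the epidermis, there from 2 of 38 cells. Dermal fibroblasts had 600 CPM [576–625] of Cxcl12, the ligand of CXCR4, and 1698 CPM [1658–1739] of Cxcl14. Dermal NK cells or innate lymphoid cells had 737 CPM [617–873] of Xcl1, the ligand of XCR1. In the epidermis Xcl1 was highest in γδT cells, at 285 CPM [254–320], and Ccl1, the ligand of CCR8, in upper follicle keratinocytes, at 51.7 CPM [43.2–61.3], from 3 of 98 cells. Ccl27a, the skin ligand of CCR10, was also highest there, in 44 of 98 cells, at 40.1 CPM [32.7–48.8].

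Among receptors, Ccr8 was highest in dermal regulatory T cells, on 9 UMIs (49.3 CPM [22.5–93.5]). Ccr9 stood at 165 CPM [123–216] in plasmacytoid DCs and Xcr1 at 24.1 CPM [12.8–41.2] in conventional DC1. Both genes are among the markers that define these gates, so their rank there follows in part from the gating. Ackr1, a scavenging receptor of venules, had 594 CPM [528–666] in blood endothelial cells. Ackr4, which scavenges CCL19, CCL20 and CCL21, was highest in dermal fibroblasts (22.3 CPM [17.9–27.5]) and in basal keratinocytes of the epidermis (2.50 CPM [2.19–2.85]). Fibroblasts also had the highest dermal level of Ccl19 (405 CPM). The Ccl20 level was lower in basal keratinocytes (64.6 CPM) than in suprabasal (102 CPM) and upper follicle cells (151 CPM). Ccr10 had 25 dermal and 19 epidermal UMIs.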
